A study of Mus musculus with 12 samples.

Results

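The 10 mouse miRNA precursors mmu-mir-495, mmu-mir-487b, mmu-mir-382, mmu-mir-134, mmu-mir-485, mmu-mir-154, mmu-mir-541, mmu-mir-409, mmu-mir-369 and mmu-mir-410, written below without the species prefix, lie, in this order, in the distal stretch of the miR-379 to miR-410 cluster, within the imprinted Dlk1-Dio3 region of mouse chromosome 12. They were taken by name, with no cut on a measured value, but earlier results of these data were known when they were chosen, among them lower miR-369-5p and miR-134-5p in Keluoxin. They are 10 of the 1532 precursors in the deposited tables, of which 997 are annotated and 535 were predicted by the submitters. Small RNA was sequenced from 6 libraries of db/db mice treated with Keluoxin, a Chinese herbal capsule, and from 6 libraries labelled model, taken here as db/db mice that did not receive it. The strain labels run from C57BL/KsJ-db/db to C68BL/KsJ-db/db, with the number before BL higher by 1 from sample to sample, and that number was not used. All 12 share KsJ-db/db and so lack a working leptin receptor, and no library of a non-diabetic mouse was analysed here. The labels state no age, dose or duration. They also do not say whether the 6 libraries of each group are from different animals, and the p-values below measure the spread between libraries, which may be technical. The tissue label is retinal although the protocol describes RNA from exosomes. In such bulk samples fewer cells of a type and less RNA per cell cannot be told apart.

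The Dlk1-Dio3 region is imprinted: protein-coding genes such as Dlk1 are expressed from the paternal chromosome, and long non-coding RNAs with a large group of miRNAs from the maternal one. These miRNAs are known for their expression in embryonic tissue and in neurons, where miR-134 limits the growth of dendritic spines by repressing Limk1, as shown in rat hippocampal neurons. Each precursor hairpin is cut into a 5p and a 3p arm, and bases 2 to 8 of an arm, the seed, pair with target mRNAs, so that the choice of arm and the exact 5′ start set which targets can be bound.

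The mature sequences are shown first because the comparisons below turn on arms, starts and ends. RefSeq (GRCm38.p6) gave the mature sequence of 18 of the 20 arms that had reads, and 13 of them, with the seed in capitals, are printed here.
miR-134-5p: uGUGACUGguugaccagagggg
miR-154-5p: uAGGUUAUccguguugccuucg
miR-154-3p: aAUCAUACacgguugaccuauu
miR-369-5p: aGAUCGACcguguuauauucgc
miR-369-3p: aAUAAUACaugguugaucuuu
miR-382-5p: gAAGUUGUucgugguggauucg
miR-382-3p: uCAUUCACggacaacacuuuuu
miR-409-5p: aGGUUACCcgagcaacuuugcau
miR-409-3p: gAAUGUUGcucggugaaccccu
miR-410-3p: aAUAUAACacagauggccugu
miR-485-3p: aGUCAUACacggcucuccucuc
miR-495-3p: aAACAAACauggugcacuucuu
miR-541-5p: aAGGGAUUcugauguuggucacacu

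No seed was shared between these 13 arms. In the RefSeq table, the seed of miR-410-3p was also that of miR-344d-3p and miR-344e-3p, and the seed of miR-495-3p was also that of miR-1192 and miR-12200-5p. The other 11 seeds belonged to no other mouse miRNA of the table.

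All 10 hairpins in RefSeq were identical to the deposited precursors and lie on the plus strand within 25.0 kb, from the first base of mir-495 (chr12:109718754-109718816) to the last of mir-410 (chr12:109743715-109743795). In the GENCODE M21 annotation, mir-495 and mir-487b (chr12:109727333-109727414) lie outside annotated host genes. The other 8 lie within Mirg, a maternally expressed non-coding RNA gene (chr12:109729764-109749460). Of these, mir-134 (chr12:109734139-109734209), mir-485 (chr12:109734902-109734974) and mir-410 lie wholly in Mirg exons. The hairpins of mir-154 (chr12:109738433-109738498), mir-541 (chr12:109742409-109742498) and mir-409 (chr12:109743158-109743236) are intronic, and those of mir-382 (chr12:109733771-109733846) and mir-369 (chr12:109743418-109743496) are intronic except for 2 bases and 1 base.

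The 12 libraries held between 1933375 and 7892147 counted reads, and the 10 precursors drew 145385 reads in all, 0.231% of the total and between 4253 and 21029 per library. Only 124 of these reads, 0.0853%, also matched another precursor. The photoreceptor miRNAs miR-182, miR-183 and miR-96 summed to between 187675 and 376383 CPM (read counts normalized to the scaled library size) in Keluoxin and between 353340 and 417994 CPM in model libraries, which accords with the retinal label. Keluoxin replicate 4 stood apart: miRNAs typical of lens and epithelium summed to 10017 CPM there. The other Keluoxin libraries had 75.8 to 182 CPM and model 69.2 to 455. Muscle miRNAs summed to 1908 CPM in replicate 4, against 285 to 414 and 298 to 432.6, and its photoreceptor sum was the lowest. The lens and epithelial sum was mostly miR-184-3p, at 1772 ± 4015 CPM (mean ± SD) in Keluoxin and 165 ± 120 in model. In contrast, miR-205-5p (7.41 ± 7.56 and 15.7 ± 15.0) and miR-200c-3p (5.02 ± 4.87 and 13.6 ± 12.9) had lower means in Keluoxin. The median log2 fold change of the 5 tested arms of this list was −0.80, and none passed. Erythroid miRNAs summed to 194 to 721 CPM in Keluoxin replicates 3 to 6, against 56.2 and 84.5 in Keluoxin replicates 1 and 2 and 58.5 to 76.4 in model. Neuronal miRNAs summed to 125503 to 165610 CPM in Keluoxin and 158481 to 177219 in model, with 1 of 9 arms lower and none higher, and endothelial miR-126a to 1097 to 1411 and 1593 to 2120 CPM, with 1 of 2 arms lower. Of the 6 photoreceptor arms, 3 were lower and none higher (median log2 fold change −0.47), where 8.1% of all 802 tested arms were lower and 8.98% higher. In the same lists, miR-96-5p (0.27, edgeR adjusted p = 0.0602) and endothelial miR-126a-5p (0.26, edgeR adjusted p = 0.239) had fold changes above 0. No arm passed among 4 of pigment epithelium and ciliary body (median 0.06) and 2 of leukocytes (median 0.20). Of markers of other tissues, erythroid miR-451a-5p (log2 fold change 3.04, edgeR adjusted p = 0.0145), liver miR-122-5p (2.55, edgeR adjusted p = 0.0206) and muscle miR-133b-3p (1.86, edgeR adjusted p = 0.0493) were higher in Keluoxin. They were 1 of 2 erythroid, 1 of 1 liver and 1 of 4 muscle arms tested. miR-122-5p was at 2.38 to 41.1 CPM in Keluoxin and 1.18 to 4.87 in model. miR-133b-3p was at 6.03 ± 6.35 CPM in Keluoxin and 1.64 ± 0.754 in model. The part of these shifts in the results below was not tested. No marker precursor was without reads. Values without Keluoxin replicate 4 are given beside the member results that passed in the main tests and several others that it moved. They are not given for the marker arms or the other miRNAs of the locus.

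Summed over both arms, mir-382 was the most abundant of the 10 precursors and mir-154 the least. mir-382 stood at 549 ± 83.1 CPM in Keluoxin and 681 ± 74.6 in model, and mir-154 at 58.8 ± 7.91 and 53.5 ± 6.40 (SD, n = 6 each, here and below). Over all 12 libraries the order between them was mir-369 (mean 451 CPM), mir-541 (334), mir-410 (220), mir-134 (179), mir-495 (133), mir-409 (125), mir-485 (91.5) and mir-487b (89.8). Neighbours in this order often lay within each other's spread. mir-487b was at 92.9 ± 6.50 CPM in Keluoxin, above mir-485 at 80.8 ± 10.1, whereas in model mir-487b was at 86.7 ± 7.998, below mir-485 at 102 ± 6.45. mir-495 likewise stood above mir-409 in Keluoxin, at 136.3 ± 8.38 and 111 ± 14.4 CPM, and below it in model, at 130 ± 21.2 and 138 ± 15.8. Each read is 1 whole small RNA, so these levels need no division by length. Differences between miRNAs in adapter ligation were not measured.

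Of the 15 arms that passed the filter on low counts, 3 fell in Keluoxin and none rose: miR-134-5p, miR-369-5p and miR-485-5p. Over all 802 arms tested, 17.1% passed (adjusted p under 0.05 after Benjamini-Hochberg, edgeR quasi-likelihood fit), 8.1% being lower and 8.98% higher. Of the 502 arms of annotated precursors, to which the members belong, 9.76% were lower and 3.78% higher. Without Keluoxin replicate 4, 2 of the 15 were lower. The groups did not overlap for the same 3 members, as for 4.24% of all arms in this direction. The lower miR-369-5p and miR-134-5p were known when the members were chosen, so these counts cannot show whether the group differs from other arms. The median log2 fold change, Keluoxin over model, was −0.27 over the 15 arms, against 0.03 over all 802 and −0.13 over the 502 arms of annotated precursors. The fold change was below 0 for 10 of the 15 arms. Scaling moved these values: the median of all arms shifted by −0.26 with upper quartile scaling, which gave 4 lower members and 14.1% lower over all arms, and by 0.20 with scaling to total reads, which gave 1 and 2.99%. The sum of the 10 precursors was 2158 ± 156 CPM in Keluoxin and 2431 ± 225 in model, but 2302 ± 131 and 2277 ± 207 CPM without a scaling factor.

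**Figure D1:**
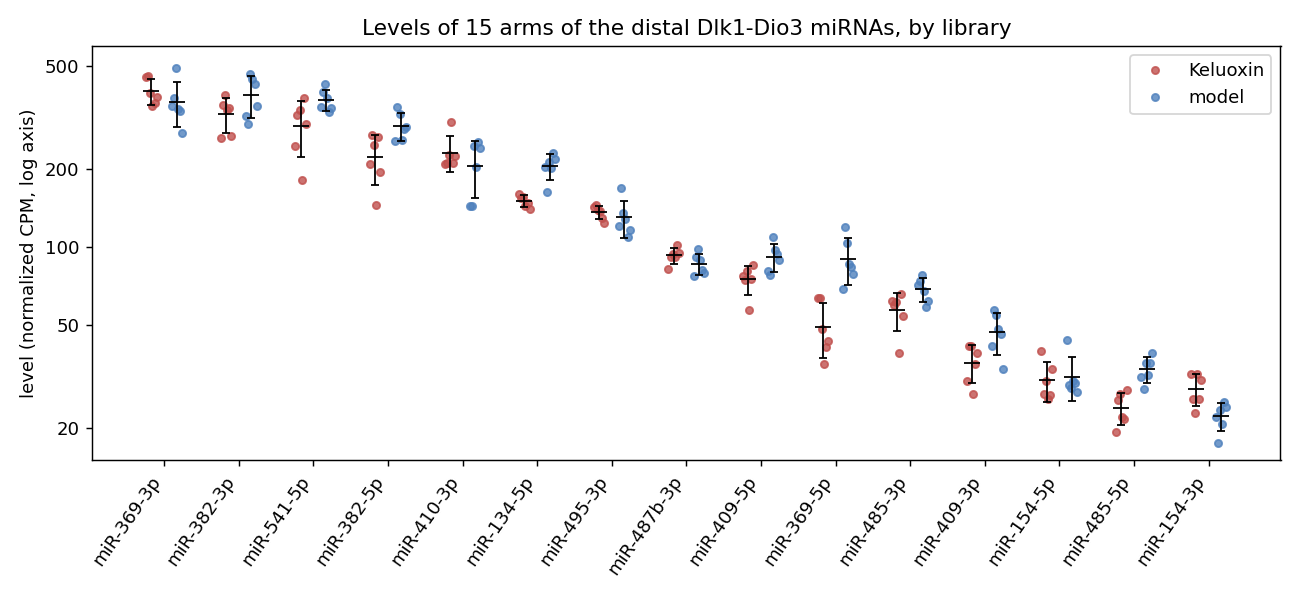
Level of each of the 15 tested arms in every library (normalized CPM, log axis), in order of mean level, with Keluoxin left of model; points are libraries and bars the mean ± SD of 6. The groups are apart for miR-134-5p, miR-369-5p and miR-485-5p and overlap for the other 12 arms.

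miR-369-5p fell the most. Its lowest, median and highest levels were 35.4, 45.8 and 63.6 CPM in Keluoxin, against 68.6, 84.8 and 119 CPM in model. Every Keluoxin library lay below every model library. The means were 49.2 ± 11.8 and 89.9 ± 18.4 CPM, a log2 fold change of −0.87 (SE 0.19, edgeR adjusted p = 0.0117). This call held in all 23 alternative fits, with a fold change between −1.14 and −0.69, and without Keluoxin replicate 4 it was −0.79 (edgeR adjusted p = 0.0197). Within Keluoxin, replicates 1 and 2 were the highest at 63.3 and 63.6 CPM and the other 4 lay between 35.4 and 48.2. Those are the libraries with the low and the high erythroid sums, whose part in the result was not tested.

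miR-134-5p, the arm known for its role at dendritic spines, fell in Keluoxin to between 141 and 161 CPM with a median of 151, against 163 to 231 with a median of 209 in model. The lowest model library, replicate 2, lay just above the highest Keluoxin library. The means were 151 ± 7.77 CPM in Keluoxin and 206 ± 23.3 in model, which is −0.45 on the log2 scale (SE 0.10, edgeR adjusted p = 0.0139). Without Keluoxin replicate 4 the log2 fold change was −0.43 (edgeR adjusted p = 0.0232). It passed whichever library was left out, but not with scaling to total reads (−0.25, edgeR adjusted p = 0.134) or without the filter on low counts (−0.44, edgeR adjusted p = 0.0752). Its partner arm miR-134-3p was hardly detected, with 26 reads in Keluoxin and 38 in model.

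miR-485-5p, an arm reported to repress the synaptic vesicle protein SV2A in rat neurons, was lower in Keluoxin at 19.3 to 27.9 CPM with a median of 23.8, against 28.2 to 38.8 with a median of 33.8 in model. The groups were separate by less than 1 CPM. The means of 23.9 ± 3.44 and 33.6 ± 3.78 CPM gave a log2 fold change of −0.49 (SE 0.14, edgeR adjusted p = 0.0335). The call was lost in 8 of the 12 fits that left out 1 library, among them Keluoxin replicate 4 (−0.46, edgeR adjusted p = 0.0559), and also with Keluoxin replicates 1, 2 or 5 or model replicates 3, 4, 5 or 6 left out, where adjusted p reached at most 0.0836. It was also lost with scaling to total reads (−0.29, edgeR adjusted p = 0.190), without the filter (0.162), with annotated precursors only (0.0561), with reads free of any difference (0.0894) and with the replicate block (0.0562), so that it passed in 10 of 23 alternatives. The other arm of the same hairpin, miR-485-3p, was at 56.9 ± 9.55 CPM in Keluoxin and 68.6 ± 7.33 in model (−0.27, SE 0.14, edgeR adjusted p = 0.188), and the fold change was −0.18 without Keluoxin replicate 4.

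**Figure D2:**
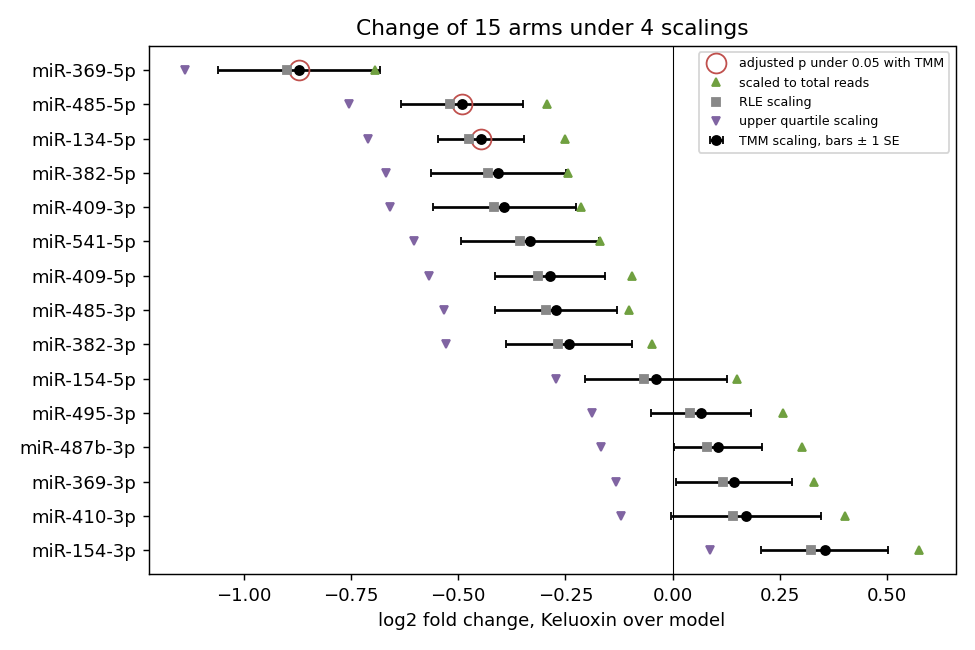
Log2 fold change, Keluoxin over model, of the 15 tested arms with TMM scaling (black, ± 1 SE) and under 3 other scalings; ringed arms have an adjusted p under 0.05. miR-369-5p is the leftmost arm under each scaling, between −1.14 and −0.69, and miR-154-3p the rightmost.

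The most abundant arm of every precursor but mir-134 did not pass. miR-369-3p, which in human cells binds AU-rich elements of TNF mRNA, was at 351 to 459 CPM in Keluoxin with a median of 388, and at 277 to 491 in model with a median of 347. The Keluoxin values lay inside the model range. Its log2 fold change was 0.14 (SE 0.14, edgeR adjusted p = 0.454), and it turned to −0.13 with upper quartile scaling. miR-382-3p stood at 265 to 389 CPM in Keluoxin and 298 to 469 in model (−0.24, SE 0.15, edgeR adjusted p = 0.244). Its 5p partner miR-382-5p, at 145 to 271 and 257 to 349 CPM, came nearer the threshold (−0.41, SE 0.16, edgeR adjusted p = 0.0911). Keluoxin replicate 4 was the lowest of the 12 for miR-382-5p, and without that library the fold change was −0.31 (edgeR adjusted p = 0.132).

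miR-541-5p, reported to limit neurite growth in a rat cell line, ranged from 182 to 378.8 CPM in Keluoxin, with its minimum in replicate 4, and from 334 to 426 in model (−0.33, SE 0.16, edgeR adjusted p = 0.161), and was −0.22 without that library. miR-409-5p, at 57.2 to 84.8 and 78.2 to 110 CPM, likewise had its minimum in that library (−0.29, SE 0.13, edgeR adjusted p = 0.135). miR-409-3p was at 27.1 to 41.4 CPM in Keluoxin and 33.6 to 57.2 in model (−0.39, SE 0.17, edgeR adjusted p = 0.122). For all of these arms the groups overlapped.

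miR-410-3p was at 210 to 306 CPM in Keluoxin and 144 to 255 in model (0.17, SE 0.18, edgeR adjusted p = 0.484), and Keluoxin replicate 4 held its highest value, without which the fold change was 0.08. miR-495-3p, reported in rat brain to repress BDNF, was at 124 to 145 CPM and 109 to 169 CPM (0.07, SE 0.12, edgeR adjusted p = 0.693). miR-487b-3p was at 82.2 to 102 and 77.3 to 98.4 CPM (0.11, SE 0.10, edgeR adjusted p = 0.460). All 3 had folds above 0 that turned negative with upper quartile scaling.

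Both arms of mir-154 were low. miR-154-5p was at 25.7 to 39.8 CPM in Keluoxin and 27.4 to 43.6 in model (−0.04, SE 0.17, edgeR adjusted p = 0.883). miR-154-3p was at 22.7 to 32.3 CPM in Keluoxin and 17.5 to 25.2 in model (0.35, SE 0.15, edgeR adjusted p = 0.113), with 5 of the 6 Keluoxin libraries above every model library. It passed in 2 alternatives, with arms of annotated precursors only (0.45, edgeR adjusted p = 0.0450) and with reads free of any difference from the precursor (0.48, 0.0318).

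The other 5 arms were too rare for the filter. miR-134-3p, miR-541-3p and miR-410-5p had 64, 52 and 97 reads in all. miR-410-5p lay at 0 to 2.03 CPM in Keluoxin and 1.56 to 3.13 in model, and 5 of 6 Keluoxin libraries were below all of model. miR-487b-5p had no read in any Keluoxin library, which allows up to 3 reads in each, and 14 reads over 5 of the 6 model libraries. DESeq2, which applies a filter of its own, called miR-487b-5p lower (DESeq2 adjusted p = 0.0442) beside the 3 arms named above. miR-495-5p had 2 reads, both in Keluoxin replicate 1.

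Which arm of the hairpin was kept differed widely among the 10 precursors. The 5p arm took over 99% of the reads of mir-134 (99.4%) and mir-541 (99.7%). The 3p arm took 99.3% of mir-410, 99.8% of mir-487b and 99.98% of mir-495, with 8466 reads against 2. The remaining 5 precursors had both arms in number, with pooled 5p shares of 15.6% for mir-369, 31.7% for mir-485, 41.5% for mir-382, 54.98% for mir-154 and 66.5% for mir-409. Only these 5 had enough reads for a test of the ratio.

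The mir-369 hairpin, in which capitals mark the 5p arm and then the 3p arm, is shown because its arms moved apart.
mir-369: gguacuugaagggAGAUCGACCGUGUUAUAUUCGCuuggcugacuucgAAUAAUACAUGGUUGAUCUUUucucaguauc

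The 5p arm held 9.15%, 10.5% and 12.2% of mir-369 reads in Keluoxin (lowest, median and highest), against 16.3%, 20.003% and 24.04% in model. The groups did not overlap, as for 6.71% of the 164 precursors tested in this direction. The means were 10.8% ± 1.22 and 19.98% ± 2.86, or 8.35 ± 1.06 reads of the 3p arm for each 5p read in Keluoxin and 4.09 ± 0.735 in model. The log2 ratio of 5p to 3p reads fell by 1.04 (SE 0.16, limma adjusted p = 0.00153), the smallest p of the 164 precursors, of which 14.0% passed, 7.93% with a lower and 6.1% with a higher 5p share. It passed in all 16 alternatives, with a difference between −1.11 and −0.97, and was −0.98 without Keluoxin replicate 4 (limma adjusted p = 0.00324). As a ratio within a library it does not depend on scaling. It uses the same 5p reads as the miR-369-5p level, whose fall was known when the members were chosen, and is not independent of that call. In reads, Keluoxin held 1480 of the 5p and 12159 of the 3p arm, and model 3013 and 12206.

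**Figure D3:**
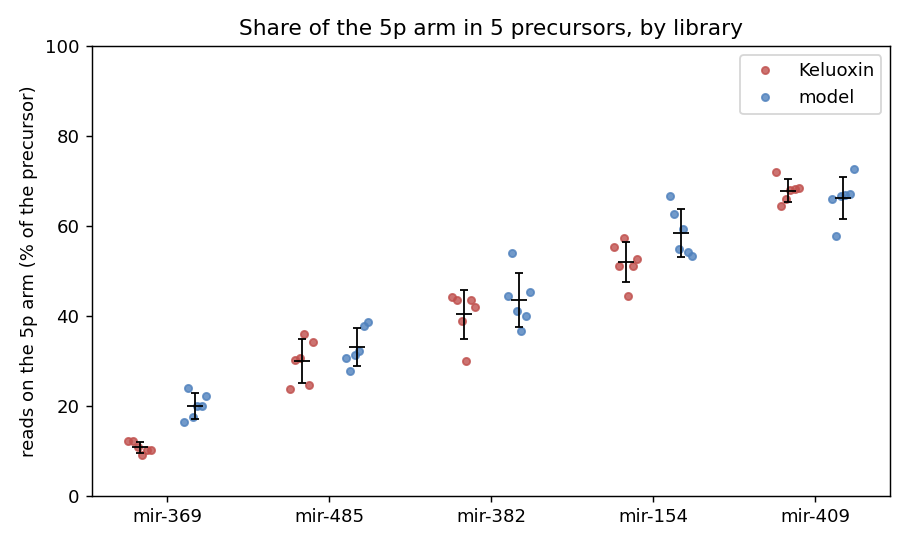
Share of the 5p arm among the reads of each precursor (%), for the 5 precursors with both arms in number, with Keluoxin left of model; points are libraries and bars the mean ± SD of 6. mir-369 lies between 9.15% and 12.2% in Keluoxin and between 16.3% and 24.04% in model, and the other 4 overlap.

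The 4 other precursors did not pass the ratio test. mir-154 had 51.9% ± 4.41 of its reads on the 5p arm in Keluoxin and 58.5% ± 5.33 in model (log2 difference −0.39, SE 0.18, limma adjusted p = 0.171). With reads free of any difference from the precursor it passed (−0.66, limma adjusted p = 0.0320). Without Keluoxin replicate 4 the log2 difference of mir-154 was −0.30 (limma adjusted p = 0.244). mir-382 had 40.3% ± 5.41 and 43.5% ± 5.99, mir-485 29.9% ± 4.87 and 33.0% ± 4.24, and mir-409 67.8% ± 2.55 and 66.2% ± 4.77 (limma adjusted p = 0.548, 0.453 and 0.712). Keluoxin replicate 4 had the lowest 5p share of mir-382, at 29.997%, and without it the log2 difference of mir-382 was −0.06 in place of −0.19.

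Both mir-369 arms were read mainly from their RefSeq starts. The most frequent miR-369-5p read, aGATCGACcgtgttatattcg, is 1 base shorter at its 3′ end than the RefSeq form and made up 29.9% ± 2.56 of the arm in Keluoxin and 35.2% ± 6.54 in model. The most frequent miR-369-3p read, aATAATACatggttgatcttt, has the RefSeq sequence and made up 49.9% ± 1.24 and 54.1% ± 2.21. Of all miR-369-5p reads, 99.96% began at the RefSeq start, as did 97.2% of miR-369-3p reads.

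Most arms began at 1 base, but 6 of the 15 had over 5% of their reads at another start. The starts that move the seed are shown by their most frequent read for 4 of these arms, with the usual read of miR-382-3p, which does not have the RefSeq start, each with the seed of that start in capitals, as DNA.
miR-382-5p, 79.1% of reads: gAAGTTGTtcgtggtggattcg
miR-382-5p, 15.1%: aAGTTGTTcgtggtggattcg
miR-382-5p, 5.80%: aGTTGTTCgtggtggattcgct
miR-382-3p, 98.0%: aATCATTCacggacaacacttt
miR-409-3p, 70.1%: gAATGTTGctcggtgaacccct
miR-409-3p, 20.4%: aATGTTGCtcggtgaacccct
miR-409-3p, 9.02%: cGAATGTTgctcggtgaacccct
miR-485-3p, 57.7%: cATACACGgctctcctctcttc
miR-485-3p, 31.4%: gTCATACAcggctctcctctct
miR-485-3p, 7.04%: aGTCATACacggctctcctctct
miR-495-3p, 80.0%: aAACAAACatggtgcacttctt
miR-495-3p, 19.1%: aACAAACAtggtgcacttcttt

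In 2 arms the usual start was not the RefSeq start. miR-382-3p reads began 2 bases upstream of it, and the RefSeq sequence itself had 0 of the 22775 reads of the arm. miR-485-3p reads began 3 bases downstream of it in 57.7% and 1 base downstream in 31.4%, and only 7.04% began at the RefSeq start. miR-485-5p and miR-487b-3p had their second start 2 bases upstream and 1 base downstream of the main one, with 9.02% and 7.88% of reads.

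**Figure D4:**
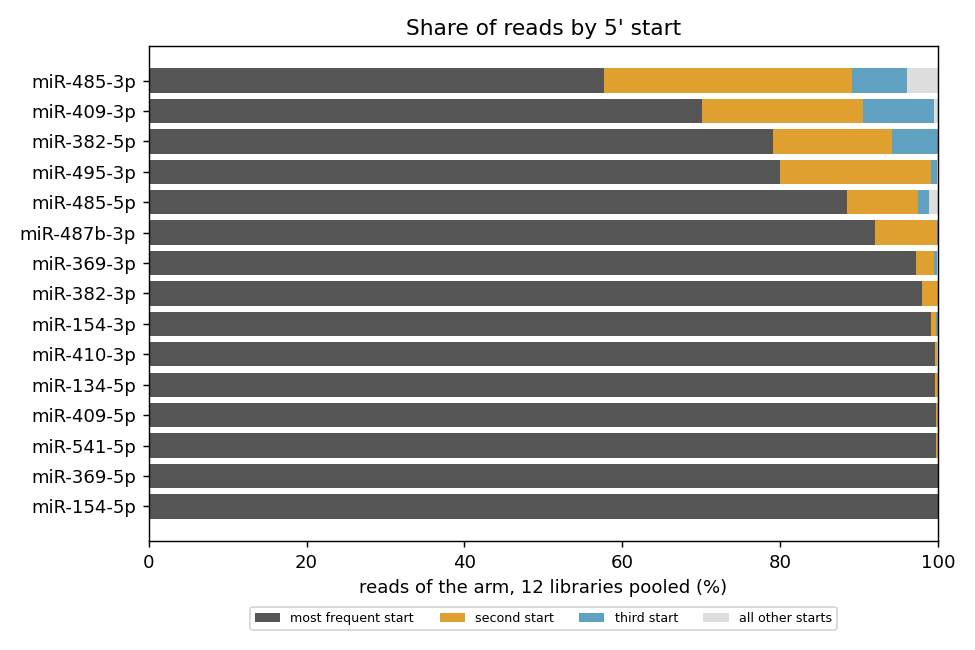
Share of the reads of each of the 15 arms at its most frequent, second and next 5′ start (%, all 12 libraries pooled). miR-485-3p has the most divided starts, with 57.7% at the most frequent one, and 9 arms have over 95% at 1 start.

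Of these 6 arms, miR-485-5p had too few reads for the test, and the other 5 did not pass. The main start took 55.7% ± 5.13 of miR-485-3p reads in Keluoxin and 59.99% ± 4.35 in model (limma adjusted p = 0.476), 70.3% ± 3.17 and 71.1% ± 3.87 of miR-409-3p reads (0.918), 78.4% ± 0.608 and 79.4% ± 1.14 of miR-382-5p reads (0.680), and 80.1% ± 0.984 and 80.1% ± 1.61 of miR-495-3p reads (0.994). It took 93.0% ± 1.21 of miR-487b-3p reads in Keluoxin and 91.3% ± 1.56 in model (limma adjusted p = 0.296). Of all arms tested, 3.67% passed, 1.31% with a lower and 2.36% with a higher main share, and 1 of the 13 members tested did, miR-409-5p, with a lower main share in Keluoxin (limma adjusted p = 0.0400). That call rests on 15 reads at other starts, all in Keluoxin, where the main start took 98.4% to 100% of reads, against 100% in every model library. Of these, 13 were reads of 16 nt that begin 19 bases upstream of the arm, and 7 came from Keluoxin replicate 4. It was lost in 9 of the 12 fits without 1 library (limma adjusted p up to 0.103), without Keluoxin replicate 4 among them (0.0629), and held without Keluoxin replicate 3 or 5 or model replicate 1.

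Mean read length passed in 8.92% of all arms tested, 2.89% shorter and 6.04% longer in Keluoxin, and in 1 of 13 members. The member count is near the share over all arms and so not a result about these miRNAs as a group. miR-409-3p reads were 21.4 to 21.9 nt long on average in Keluoxin, with a median of 21.6, against 21.0 to 21.4 in model, with a median of 21.2. Replicate 4 was the lowest Keluoxin library and the only one within the model range. The difference was 0.41 nt (SE 0.10, limma adjusted p = 0.0249). Reads of 22 nt made up 50.9% ± 5.34 of the arm in Keluoxin and 38.5% ± 4.21 in model, reads of 21 nt 24.04% ± 5.48 and 30.7% ± 3.91, and reads of 18 nt 0.821% ± 0.975 and 4.43% ± 1.55. The call was lost without Keluoxin replicate 1 or 3 or model replicate 2, 4 or 5 (limma adjusted p up to 0.0581) and held without Keluoxin replicate 4 (0.46 nt, 0.0148). The lowest library had 67 reads of this arm.

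Many reads ended in a base that the precursor does not have at that position. In the shares by arm, a read counted as such only if its last base was its sole difference from the precursor. Such reads were common in all 13 members tested, with means from 23.6% (miR-382-3p) to 51.4% (miR-134-5p) in Keluoxin and from 21.5% (miR-382-3p) to 44.4% (miR-134-5p) in model. Over all reads of a library, of any miRNA, the last base differed in 25.4% to 35.9% in Keluoxin and 27.9% to 30.1% in model. Reads with any difference made up 43.9% to 50.6% in Keluoxin and 39.2% to 43.3% in model, with means of 48.1% ± 2.51 and 40.7% ± 1.69. The groups thus did not overlap in this library-wide share, and its part in the results above was not tested. Keluoxin replicate 4 had the lowest last-base share of the 12 libraries. Of the 365 arms tested, 26.8% passed, 25.8% with a higher and 1.1% with a lower share in Keluoxin. Against this, 3 of 13 members passed, all higher, which is near the share over all arms and so not a result about these miRNAs. Without Keluoxin replicate 4, 5 of 13 members and 49.0% of all arms were higher, and without any other single library 2 to 4 members were. The part of the library-wide difference in their calls was not tested.

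The 3 arms were miR-154-5p, miR-382-5p and miR-134-5p. In miR-154-5p the share was 36.9% to 46.7% in Keluoxin with a median of 43.0%, and 22.5% to 36.2% in model with a median of 32.0%. The groups did not overlap, as for 6.85% of all arms in this direction (log2 difference 0.79, SE 0.18, limma adjusted p = 0.00994). Reads ending in a differing A made up 22.1% ± 5.49 of miR-154-5p reads in Keluoxin and 17.4% ± 5.67 in model, and in a differing U 14.1% ± 1.91 and 9.23% ± 2.67. In miR-382-5p the share was 33.1% to 45.0% and 30.4% to 34.1% (0.46, SE 0.12, limma adjusted p = 0.0167). In miR-134-5p it was 45.4% to 56.6% and 41.4% to 49.0% (0.41, SE 0.12, limma adjusted p = 0.0302). A differing U ended 18.3% ± 2.62 of miR-134-5p reads in Keluoxin and 12.1% ± 2.02 in model, and a differing A 26.8% ± 3.27 and 29.6% ± 0.888. The miR-134-5p call was lost in 7 of 12 fits without 1 library (limma adjusted p up to 0.0741), namely without Keluoxin replicates 1, 3 or 6 or model replicates 2, 3, 4 or 5. All 3 held without Keluoxin replicate 4.

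**Figure D5:**
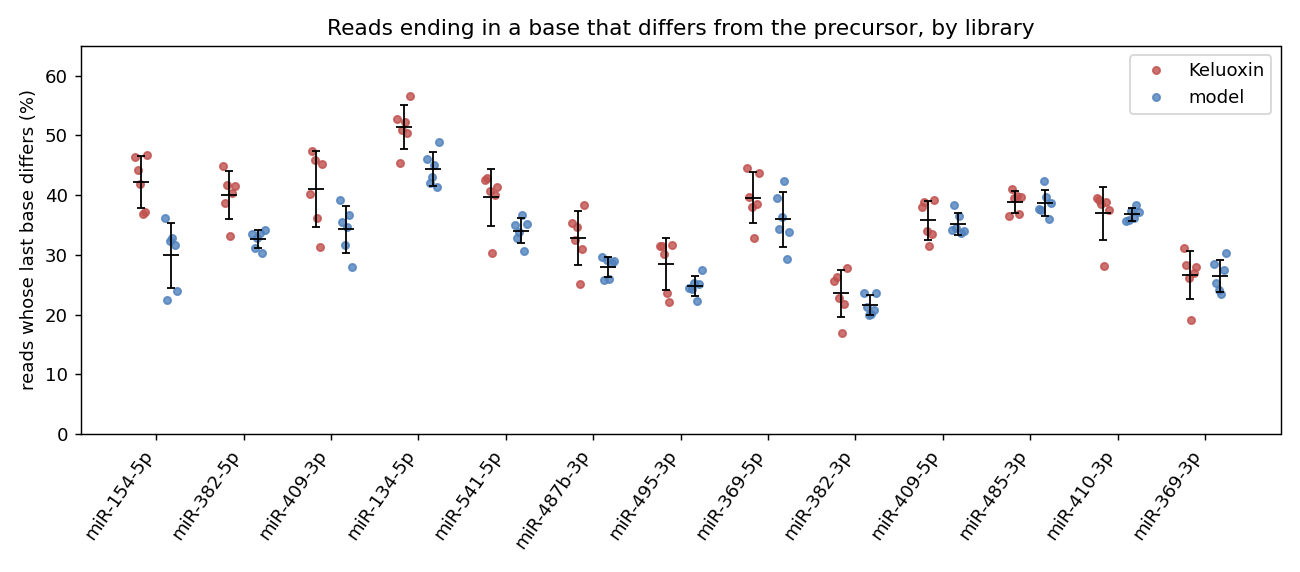
Share of reads whose last base is their sole difference from the precursor (%) for the 13 members tested, ordered by log2 difference, with Keluoxin left of model. Points are libraries and bars the mean ± SD of 6. miR-154-5p, from 36.9% to 46.7% in Keluoxin and 22.5% to 36.2% in model, is the only arm whose groups do not overlap.

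A-to-G differences within the arm, which is how edited adenosines read, were near 0 in these 10 precursors. Of 96 adenosine positions with at least 50 reads in all, 65 had any read with G, and the highest pooled share was 1.11%, at position 22 of miR-409-5p counted from the main start. No member position met the criteria for the test. Elsewhere in the locus 7 positions met the criteria, with shares over the 12 libraries from 0.413% to 2.61% (position 5 of miR-127-3p) up to 46.2% to 58.3% (position 6 of miR-376b-3p). Between them were miR-300-3p and miR-381-3p, at 2.00% to 3.87% and 2.62% to 5.21%, miR-379-5p at 7.78% to 12.3%, miR-376b-5p at 13.2% to 24.8% and miR-411-5p at 23.8% to 31.6%. With a minimum of 20 reads, position 22 of miR-409-5p passed as higher in Keluoxin, as did 23.8% of all 63 positions tested.

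The other miRNAs of the locus were set beside the 10 by name. Of 30 tested arms in the rest of the miR-379 to miR-410 cluster, 6 were lower in Keluoxin and none higher. For comparison, 8.1% of all 802 tested arms were lower and 8.98% higher, and 9.76% and 3.78% of the 502 annotated arms. The median log2 fold change of the 30 arms was −0.16. The most abundant of them, miR-381-3p, was at 1086 ± 82.9 CPM in Keluoxin and 1026 ± 131 in model (0.08, edgeR adjusted p = 0.575), miR-379-5p at 340.6 ± 52.6 and 577 ± 66.7 (−0.76, 0.00482), and miR-300-3p at 462 ± 37.2 and 557 ± 61.9 (−0.27, 0.0788). Of 21 tested arms upstream of the cluster, 4 were lower and 1 higher, miR-136-3p (0.62 on the log2 scale, edgeR adjusted p = 0.0245), with a median of −0.16. In that list miR-434-3p was at 1148 ± 129 CPM in Keluoxin and 1232 ± 276 in model, and miR-127-3p at 753 ± 503.8 and 370 ± 62.6, and neither passed (edgeR adjusted p = 0.635 and 0.0774).

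Across the 12 libraries the members' levels were related to each other to very different degrees. Over the 105 pairs of tested arms, the median Pearson correlation of log2 levels was 0.13. The highest was 0.91, between miR-382-5p and miR-541-5p, and the lowest −0.80, between miR-154-3p and miR-409-3p. Among 487 other annotated arms, those most like the summed level of the 10 precursors were miR-874-3p (Pearson r = 0.93), miR-217-5p (0.89), miR-671-3p (0.87), miR-379-3p (0.85) and miR-194-5p (0.82), over 12 libraries. These values share the libraries and their scaling and are a description only.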

How the data were processed

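Per the labels' protocols, 1 µg of total RNA went into each library and inserts of 15 to 35 nt were kept. The tools bcl2fastq, cutadapt, Bowtie and Novoalign are listed in the submitters' processing notes, while their roles, the genome build and the miRBase release were not given in the sources used here. The deposited tables hold 1 line per distinct sequence and precursor, with unnormalized counts per the file headers. For a sequence found in more than 1 precursor, the authors' count is a fraction of its reads. The other deposited values are read lengths, differences and positions on the precursor, which have 5 added.

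The undivided reads of each sequence were counted once per arm, by the side of the precursor middle, and shared equally where arms shared it, giving 2121 arms. Levels were tested with edgeR 4.0.16 in R 4.3.3 (TMM scaling, filterByExpr, quasi-likelihood, 802 arms), with SE taken as the fold change over the root of F. Arm ratios, starts, lengths and last bases were tested with limma 3.58.1 (pseudocount 0.5; 10 reads or more for both arms in 6 libraries, or 50 reads in every library), always over the whole table, and DESeq2 1.42.0 was an alternative. A-to-G positions needed 50 reads in every library and a mean share of 1%, and no member met this. The threshold was an adjusted p of 0.05. Scripts were tested on simulated data. No 2 libraries of the same group were copies, with a chi-square per degree of freedom of at least 71.3.

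The members and lists were chosen with earlier results of these data known, among them the lower miR-369-5p and miR-134-5p. Named in full were member arms past any threshold and the most abundant arm of each precursor; likeness and the locus lists name at most 5 and 3 arms. Libraries that share a replicate number were not taken as paired.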

Additional observations from a re-analysis of the deposited data

Results flagged for a closer look

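In 58 sets of 6 libraries, 5 held a value far from the rest of its group, where chance flags about 1 set in 20. Keluoxin replicate 4 accounted for 3 of them. miR-409-5p was at 57.2 CPM there, against 74.7 to 84.8 in the other Keluoxin libraries. miR-410-3p was at 306 CPM, against 210 to 227. The 5p arm held 29.997% of mir-382 reads, against 38.9% to 44.2%. That library also had the highest lens and muscle miRNA sums, and their part in these values was not tested. In model replicate 1, miR-154-5p was at 43.6 CPM, against 27.4 to 30.2 in the other model libraries. In model replicate 4, 88.3% of miR-487b-3p reads began at the main start, against 91.3% to 92.8% in the other model libraries.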

How the results depend on the processing

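The calls of miR-369-5p and of the mir-369 arm ratio held in all alternatives run. The cause of the changes below was not tested. The number of lower members, 3, became 1 with scaling to total reads or without the filter, and 2 to 3 without 1 library. The number of higher members, 0, became 1 (miR-154-3p) with annotated precursors only or with reads free of differences, which also gave 2 lower arm ratios. The start call became 0 with reads free of differences and 0 to 1 without 1 library, and so did the length call. With reads free of differences miR-409-3p had only 44 reads in its lowest library, under the minimum of 50, and was not tested. Libraries with the same replicate number had correlated deviations of 0.0346 to 0.232, not all over 0.1, and share only a number; a replicate block left 2 lower levels, 0 starts and 0 lengths. Higher last-base calls ranged from 2 to 5 without 1 library, with 5 without Keluoxin replicate 4. With a minimum of 20 reads, 1 A-to-G position was higher, position 22 of miR-409-5p, with 11 G reads in 4 Keluoxin libraries and 0 in model, where 16 of all 63 positions passed. Upper quartile scaling gave 38.6% of calls over all arms as higher and total reads 78.2%, against 52.6%. Log2 differences that changed sign were all of uncalled results. With upper quartile scaling miR-369-3p was at −0.13, miR-410-3p at −0.12, miR-487b-3p at −0.17 and miR-495-3p at −0.19. miR-154-5p was at 0.15 with total reads, 0.048 with annotated precursors only and 0.011 with reads of 18 to 26 nt, and between −0.11 and 0.095 without 1 library. The same range was −0.0065 to 0.16 for miR-495-3p and −0.0060 to 0.18 for the mir-409 arm ratio. Without both model replicate 1 and Keluoxin replicate 4, left out after seeing the data, miR-154-5p was at 0.13 and miR-410-3p at −0.0058; without 1 library miR-410-3p lay between 0.078 and 0.24.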
